A study of Mus musculus with 140 samples.

Results

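This account concerns 9 genes of the interferon response and of major histocompatibility complex (MHC) class I in mouse liver, namely Irf7, Ifit1, Ifit3, Isg15, Irgm1, Gbp7, H2-K1, H2-D1 and B2m. They were taken by gene symbol, and 9 of 9 were found among the 10489 genes listed for all 3 genotypes (13236 genes were listed for at least 1 genotype). The livers came from male mice aged 3 months, and the methods of the study name C57BL/6 for the WT mice. WT mice were compared with Per1,2-/- mice (labelled PerDKO), which lack the clock repressors PER1 and PER2, and with Bmal1-/- mice (labelled BMALKO, from the Jackson Laboratory line B6.129-Arntl tm1Bra/J), which lack the clock activator BMAL1. Both deletions affect the whole body, so liver cells and immune cells carry them alike. All mice were fed without restriction, were kept in 12 h of light and 12 h of dark before the experiment, and were sampled in constant dark at 12 time points, every 4 h from circadian time (CT) 0 to CT44. One label of the Bmal1-/- samples also speaks of a light-dark cycle during the experiment. The study states constant dark for these mice, and the label was not explained. Each genotype and time point had 4 samples, lettered A to D, except for 4 groups with 3 samples (CT8 and CT20 in Per1,2-/-, CT16 and CT20 in Bmal1-/-), which gave 48 WT, 46 Per1,2-/- and 46 Bmal1-/- samples. RNA was measured by 3′ tag sequencing with molecular identifiers, so a value counts tagged RNA molecules of a gene, and levels are given as CPM, the count scaled to a common library size with TMM factors. Values were compared between samples of 1 gene and not between genes.

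Interferons are secreted when a cell senses nucleic acids of a pathogen or when lymphocytes are activated, and they signal through surface receptors and JAK kinases to transcription factors. Type I interferons act mainly on the interferon-stimulated response element (ISRE) of promoters, whereas interferon gamma acts on the gamma-activated site (GAS). MHC class I molecules, made of a heavy chain and beta-2-microglobulin, present peptides from inside the cell to T cells, and interferons raise their transcription in many cell types, including hepatocytes and the resident liver macrophages called Kupffer cells.

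Of the members, Irf7 encodes the transcription factor that amplifies type I interferon production. Ifit1 and Ifit3 encode RNA-binding antiviral proteins, and Isg15 a ubiquitin-like modifier. Irgm1 and Gbp7 encode GTPases induced mainly by interferon gamma that act at membranes around intracellular pathogens. H2-K1 and H2-D1 encode classical class I heavy chains, and B2m their shared light chain. H2-K1, H2-D1 and other class I genes, Ifit3 and Ifit3b, Irgm1 and Irgm2, and the Gbp genes are similar to each other in sequence, so the split of reads between them by the authors' counting is uncertain.

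The promoters were searched for the ISRE core, because it is the element through which most of these genes are known to respond. The windows were those of RefSeq, from 250 bases before to 50 bases after each transcription start on GRCm38.p6, and the motif was GAAA, any 2 bases and GAAA, read on both strands (TTTC, any 2 bases and TTTC on the other). It was present in promoters of 6 of the 9 members, against 3.44% of all 32851 promoters (1131 of them). The stretches that hold it are shown 5′ to 3′ on the strand of the gene, with the motif in capitals; all motifs lie before the RefSeq start, upstream of the annotated gene, except that the stretch of Irgm1 lies within the longer GENCODE model of that gene (chr11:48861968-48871683).
Ifit1 chr19:34640770-34640828 (+): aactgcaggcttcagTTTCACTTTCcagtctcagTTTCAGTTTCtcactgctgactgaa
Ifit3 chr19:34583358-34583431 (+): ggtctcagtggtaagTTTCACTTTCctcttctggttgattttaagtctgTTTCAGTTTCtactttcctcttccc
Isg15 chr4:156200860-156200911 (-): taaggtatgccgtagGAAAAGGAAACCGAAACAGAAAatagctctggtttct
Irgm1 chr11:48871420-48871465 (-): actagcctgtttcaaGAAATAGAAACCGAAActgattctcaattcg
Gbp7 chr3:142530268-142530307 (+): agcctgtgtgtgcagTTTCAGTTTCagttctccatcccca
B2m chr2:122147533-122147572 (+): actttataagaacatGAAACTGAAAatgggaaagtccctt
Ifit1 and Ifit3 each held 2 separate copies, beginning 104 and 85 bases before the start in Ifit1 and 156 and 122 bases before it in Ifit3, and in both genes the copies read TTTCACTTTC and TTTCAGTTTC in that order. Isg15 held 3 overlapping matches between 78 and 57 bases before the start, and Irgm1 held 2 overlapping matches that began 30 and 24 bases before it. Gbp7 and B2m held 1 match each, at 53 and 139 bases before the start. No match was in the windows of Irf7, of H2-D1 or of either annotated start of H2-K1. The GAS motif, TTC, any 3 bases and GAA, which reads the same on both strands, was in 1 of the 9 members (Gbp7, with 2 matches) and in 8.30% of all promoters. A match is a description of the letters and was not tested for binding.

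Total counts ran from 1678097 to 4364594 molecules in WT, from 1442278 to 5643470 in Per1,2-/- and from 1924755 to 5325256 in Bmal1-/- samples, and no 2 samples of a group agreed within sampling noise. The genotypes were deposited as separate tables, and genotype and library preparation cannot be told apart. Tags near the 3′ end of a gene need not fall in its deleted part, which was not looked up here, so these counts did not check the knockouts: Arntl, which encodes BMAL1, was still counted in Bmal1-/- samples at 4.85 to 15.2 CPM, and Per1 and Per2 in Per1,2-/- samples at 4.33 to 27.0 and 11.1 to 40.2 CPM. The 6 hepatocyte markers, Alb among them, summed to a median of 75947 CPM in WT, 86079 in Per1,2-/- and 53450 in Bmal1-/- samples. Alb weighed heavily in these sums, with medians of 33004, 47751 and 16651 CPM. The median log2 difference of the 6 markers from WT was -0.16 in Per1,2-/- and -0.10 in Bmal1-/- livers. Kupffer cell and macrophage markers (10 of 12 listed for all genotypes, none at 0 throughout; Ly6c2 and Ccr2 were not among them) summed to 437 to 1726 CPM with a median of 686 in WT, to 453 to 2106 with a median of 707 in Per1,2-/-, and to 107 to 414 with a median of 234 in Bmal1-/- samples, so that every Bmal1-/- sample was below every WT sample. In bulk liver, fewer cells of a type and less RNA per cell cannot be told apart. Samples D of Bmal1-/- at CT40 and CT44 stood apart, with 2633 and 3163 CPM of Alb against a median of 16651 CPM in Bmal1-/- samples, and B2m values that rest on them are given with and without them.

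B2m had the largest difference from WT among the 9 genes in Per1,2-/- livers, and it was the only member that was higher than WT in both mutants. In WT livers it ranged from 295 to 1017 CPM with a median of 613. The Per1,2-/- livers ranged from 831 to 2232 CPM with a median of 1698, and 44 of 46 of these samples were above every WT sample. Bmal1-/- livers ranged from 65.4 to 1694 CPM with a median of 1332, and 40 of 46 samples were above every WT sample, whereas the 2 samples that stood apart in Alb were below every WT sample. At CT0 the 4 samples were at 860, 623, 611 and 445 CPM in WT, at 1491, 1520, 1895 and 1545 in Per1,2-/-, and at 1595, 930, 1564 and 1317 in Bmal1-/-. Both mutant groups were entirely above the WT group there.

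Over the 12 time points, B2m was 2.67-fold higher in Per1,2-/- than in WT livers (log2 difference 1.42 ± 0.10 SE, adjusted p = 2.9e-24, edgeR quasi-likelihood test with Benjamini-Hochberg adjustment over all genes). The time point mean was higher at 12 of 12 time points, and at 11 of them every Per1,2-/- sample was above every WT sample, which held for at least 11 time points in 1.19% of all genes. The exception was CT4, where the Per1,2-/- samples were at 1302, 1374, 831 and 1861 CPM and the WT samples at 549, 548, 734 and 946. Bmal1-/- livers were 2.01-fold higher than WT (1.01 ± 0.10, adjusted p = 4.5e-16, edgeR), with 8 time points free of overlap (at least 8 in 8.82% of all genes). Without the 2 Bmal1-/- samples that stood apart, the difference was 1.07. Per1,2-/- livers were 1.33-fold higher than Bmal1-/- livers (0.41 ± 0.10, adjusted p = 0.00022, edgeR), and the log2 difference was 0.35 without these 2 samples. Of the 6 hepatocyte markers, 2 were higher and 3 lower in Per1,2-/- than in WT livers and 1 was higher and 3 lower in Bmal1-/- livers (Alb 0.52 ± 0.07 and -1.02 ± 0.07), and their part in the result was not tested.

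**Figure D1:**
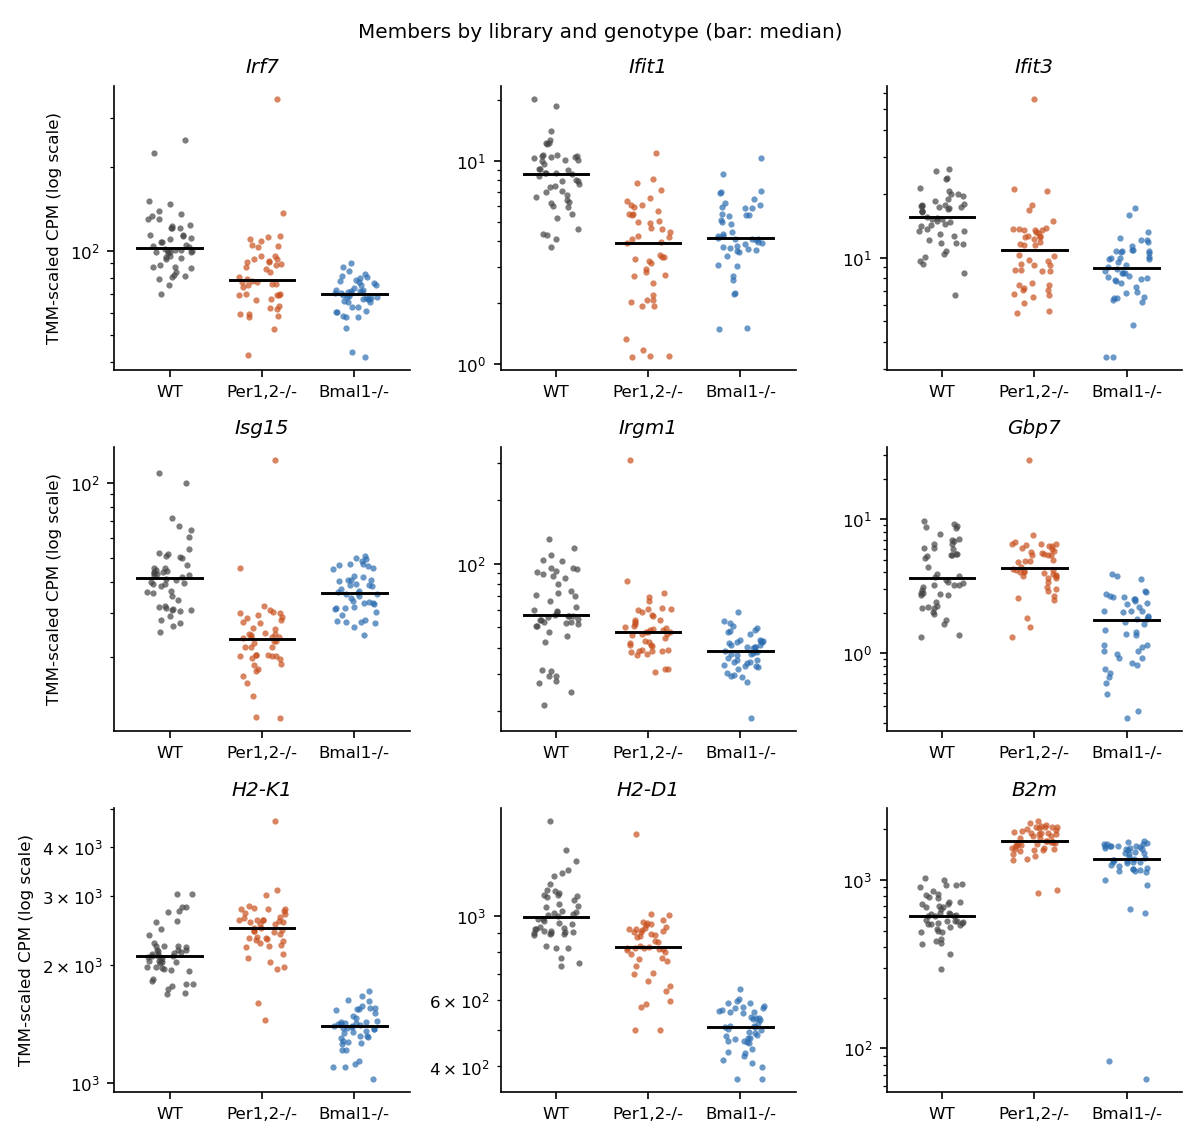
TMM-scaled CPM (log axis) of the 9 genes in each sample, 48 WT, 46 Per1,2-/- and 46 Bmal1-/-, with a bar at the median. B2m is higher in both mutants, with medians of 613, 1698 and 1332 CPM, while H2-D1 steps down from WT (991) to Per1,2-/- (829) to Bmal1-/- (509); 1 Per1,2-/- sample stands above the rest for most genes.

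The class I heavy chains did not both follow B2m, which was higher than WT in both mutants. H2-D1 was lower than WT in both, and H2-K1 was higher in Per1,2-/- and lower in Bmal1-/- livers. H2-D1 ranged from 736 to 1781 CPM (median 991) in WT, from 499.9 to 1643 (829) in Per1,2-/- and from 370 to 642 (509) in Bmal1-/- livers. No Bmal1-/- sample reached the lowest WT sample, whereas Per1,2-/- and WT samples overlapped widely. At CT20 the WT samples were at 1000, 1060, 906 and 1137 CPM, the Per1,2-/- samples at 905, 822 and 920 and the Bmal1-/- samples at 473, 410 and 416. The Bmal1-/- group was below both others there, while the highest Per1,2-/- sample was above the lowest WT sample. H2-D1 was 2.05-fold lower in Bmal1-/- than in WT livers (-1.03 ± 0.05, adjusted p = 3.2e-37, edgeR), and all 46 Bmal1-/- samples were below every WT sample, which held for 1.16% of all genes. The difference of Per1,2-/- from WT livers was smaller, 1.24-fold (-0.31 ± 0.05, adjusted p = 4.1e-08, edgeR), lower by the mean at 11 of 12 time points. Per1,2-/- livers were 1.64-fold higher than Bmal1-/- livers (0.72 ± 0.05, adjusted p = 6.2e-25, edgeR), without overlap at 8 time points (at least 8 in 7.54% of all genes).

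H2-K1 ranged from 1690 to 3044 CPM (median 2109) in WT, from 1444 to 4674 (2491) in Per1,2-/- and from 1019 to 1712 (1393) in Bmal1-/- livers. Per1,2-/- samples overlapped WT samples over most of the range, and 45 of 46 Bmal1-/- samples were below every WT sample. H2-K1 was 1.57-fold lower in Bmal1-/- than in WT livers (-0.65 ± 0.04, adjusted p = 1.9e-28, edgeR), without overlap at 12 of 12 time points (12 in 1.88% of all genes), a pattern it shared with H2-D1. Against WT, Per1,2-/- livers were 1.14-fold higher (0.19 ± 0.04, adjusted p = 2.7e-05, edgeR), higher by the mean at 9 of 12 time points, and the samples overlapped at most time points. The difference between Per1,2-/- and Bmal1-/- livers had its smallest p among the members in this gene (0.84 ± 0.04, adjusted p = 6.6e-37, edgeR), and 11 of 12 time points were free of overlap (at least 11 in 3.18% of all genes). At CT20 the Per1,2-/- samples were at 2614, 2246 and 2542 CPM, the WT samples at 2107, 2189, 2038 and 2110, and the Bmal1-/- samples at 1418, 1212 and 1267. The 3 groups did not overlap at that time point.

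Among the interferon-induced genes, Irf7 ranged from 70.2 to 249.7 CPM (median 103) in WT, from 42.3 to 350.1 (78.3) in Per1,2-/- and from 41.4 to 90.1 (69.7) in Bmal1-/- livers. The Bmal1-/- samples were all within a narrow low range, whereas WT and Per1,2-/- livers each had a few high samples, the second highest being 224 CPM in WT and 137 in Per1,2-/-. At CT8 the WT samples were at 120, 130, 136 and 123 CPM and the Bmal1-/- samples at 67.4, 71.7, 66.8 and 68.3, so that the groups were far apart. Irf7 was 1.59-fold lower in Bmal1-/- than in WT livers (-0.67 ± 0.07, adjusted p = 2.1e-15, edgeR), below WT at 12 of 12 time points by the mean and without overlap at 9 (at least 8 in 7.43% of all genes). It was 1.28-fold lower in Per1,2-/- livers (-0.36 ± 0.07, adjusted p = 2.6e-06, edgeR), lower at 9 time points and higher at 3. Between the mutants, Irf7 was higher in Per1,2-/- livers at 12 of 12 time points by the mean (0.30 ± 0.07, adjusted p = 6.8e-05, edgeR).

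Isg15 separated the mutants in the other order. It ranged from 25.2 to 109.8 CPM (median 41.6) in WT, from 11.3 to 124 (23.6) in Per1,2-/- and from 24.6 to 50.7 (36.2) in Bmal1-/- livers. Most Per1,2-/- samples were below the WT samples, while Bmal1-/- samples lay within the WT range but for the lowest. At CT0 the Per1,2-/- samples were at 20.2, 24.1, 20.3 and 21.9 CPM, the WT samples at 33.9, 44.3, 41.2 and 67.2 and the Bmal1-/- samples at 47.4, 50.0, 38.7 and 50.7. The Per1,2-/- group was below both others there, and the others overlapped. Isg15 was 1.79-fold lower in Per1,2-/- than in WT livers (-0.84 ± 0.08, adjusted p = 1.7e-17, edgeR), without overlap at 9 of 12 time points (at least 8 in 4.58% of all genes), and 8 time points separated Per1,2-/- from Bmal1-/- livers (-0.59 ± 0.08, adjusted p = 7.8e-11, edgeR; at least 8 in 9.13% of all genes). Against WT, Bmal1-/- livers were 1.18-fold lower (-0.24 ± 0.08, adjusted p = 0.0031, edgeR), and without the samples lettered A the difference was -0.12 with an adjusted p of 0.098.

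Ifit1 and Ifit3, which lie close together on chromosome 19 and hold the paired motifs shown above, were lower than WT in both mutants. Ifit1 ranged from 3.78 to 20.2 CPM (median 8.65) in WT, from 1.07 to 10.9 (3.95) in Per1,2-/- and from 1.48 to 10.3 (4.14) in Bmal1-/- livers, so that both mutants overlapped the lower part of the WT range. It was 2.24-fold lower in Per1,2-/- (-1.16 ± 0.11, adjusted p = 6.7e-17, edgeR) and 1.93-fold lower in Bmal1-/- livers (-0.95 ± 0.11, adjusted p = 2.1e-13), below WT by the mean at 12 of 12 time points in each. Ifit1 did not pass the test between the mutants, with an interval of the log2 difference from -0.45 to 0.03 (adjusted p = 0.11, edgeR). It passed without the samples lettered D (-0.29, adjusted p = 0.041) and without the 3 samples highest in Irf7 (-0.26, adjusted p = 0.040). Ifit3 ranged from 6.63 to 26.3 CPM (median 15.5) in WT, from 5.46 to 56.1 (10.8) in Per1,2-/- and from 3.38 to 17.1 (8.94) in Bmal1-/- livers. The lowest Bmal1-/- values, 3.38 and 3.41 CPM, were samples D at CT44 and CT40, which stood apart in Alb. The 3 ranges overlapped, and the difference from WT was 1.36-fold in Per1,2-/- (-0.45 ± 0.09, adjusted p = 6.6e-06, edgeR) and 1.73-fold in Bmal1-/- livers (-0.79 ± 0.09, adjusted p = 2.6e-13). Ifit3 was higher in Per1,2-/- than in Bmal1-/- livers (0.34 ± 0.09, adjusted p = 0.00070, edgeR). Without the samples lettered D, which include both that stood apart in Alb, the difference was 0.23 with an adjusted p of 0.056.

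Irgm1 and Gbp7, the GTPase genes, were lowest in Bmal1-/- livers. Irgm1 ranged from 21.5 to 131 CPM (median 57.0) in WT, from 30.8 to 310.3 (47.5) in Per1,2-/- and from 18.5 to 59.0 (38.5) in Bmal1-/- livers, and WT samples of 1 time point could differ severalfold, as at CT12 with 95.0, 29.5, 62.1 and 21.5 CPM. It was 1.64-fold lower in Bmal1-/- than in WT livers (-0.71 ± 0.10, adjusted p = 1.2e-10, edgeR) and 1.23-fold lower in Per1,2-/- livers (-0.30 ± 0.10, adjusted p = 0.0040). Gbp7 was counted at 3 to 34 molecules per sample in WT, 5 to 99 in Per1,2-/- and 1 to 17 in Bmal1-/- livers, so single values carry a large counting error. In CPM it ranged from 1.31 to 9.73 (median 3.61) in WT, from 1.33 to 27.8 (4.31) in Per1,2-/- and from 0.324 to 3.87 (1.76) in Bmal1-/- livers. Bmal1-/- samples reached only the lower part of the WT range, and the difference was 2.61-fold (-1.38 ± 0.16, adjusted p = 5.8e-13, edgeR), below WT at 12 of 12 time points by the mean. Per1,2-/- livers were 2.85-fold higher than Bmal1-/- livers in Gbp7 (1.51 ± 0.16, adjusted p = 4.8e-15, edgeR) and higher in Irgm1 (0.41 ± 0.10, adjusted p = 0.00011). Gbp7 did not pass the test between Per1,2-/- and WT livers, with an interval from -0.15 to 0.40 (adjusted p = 0.43, edgeR).

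In all, 8 of the 9 members passed the test between Per1,2-/- and WT livers (2 higher, 6 lower), where 66.6% of all genes did, 33.9% higher and 32.7% lower. All 9 passed it between Bmal1-/- and WT livers (1 higher, 8 lower), where 75.7% of all genes did, 35.9% higher and 39.8% lower. Between Per1,2-/- and Bmal1-/- livers 8 passed (7 higher, 1 lower), beside 74.4% of all genes, 39.3% higher and 35.1% lower. With shares of this size, having passed the test does not set these genes apart, and the sizes and directions above carry the description. The median log2 difference over all genes was 0.01, -0.02 and 0.03 in the 3 comparisons. The 8 members that were lower in Bmal1-/- than in WT livers were lower together with the macrophage markers, whose part in the differences was not tested.

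**Figure D2:**
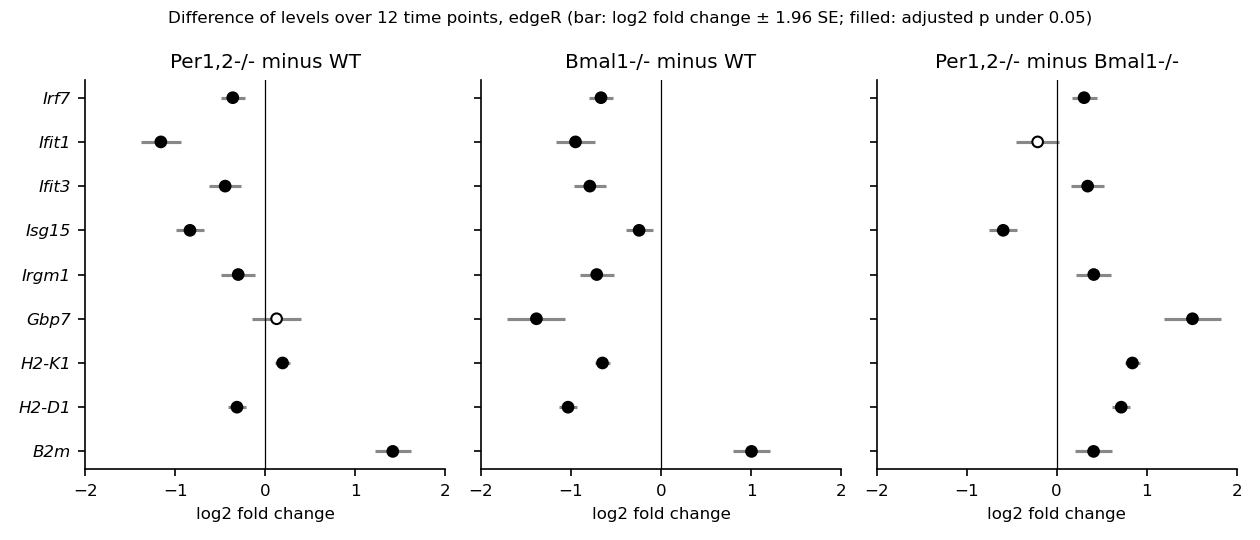
Log2 fold change of each gene over the 12 time points (horizontal axis, bars of the 95% interval, filled where edgeR's adjusted p was under 0.05) for Per1,2-/- minus WT, Bmal1-/- minus WT and Per1,2-/- minus Bmal1-/-. B2m is at 1.42 and 1.01 against WT while H2-D1 is at -0.31 and -1.03, and Isg15 is the member that lies lower in Per1,2-/- than in Bmal1-/- livers with a passed test (-0.59).

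None of the 9 genes was called rhythmic. Rhythm was tested with JTK_CYCLE, a rank test against cosine-like orders at a set period, called at q under 0.2. In WT livers 0 of 9 members passed at 24 h (lowest q 0.389, Isg15; 0 members at an unadjusted p under 0.05), where 48.6% of all genes tested did. The fold from trough to peak in a fitted 24 h wave was 1.03 to 1.33 for the members in WT, and the genes that passed had a median of 1.39. For Per1,2-/- livers 0 of 9 passed at 24 h, where 0.0864% of genes did, and 0 of 9 at 16 h, where 4.73% did, again with 0 members at an unadjusted p under 0.05. At 16 h the lowest q was 0.624 (H2-K1). Fitted folds of the members in Per1,2-/- livers, with sample A at CT32 (described below) included, were 1.06 to 1.80 at 24 h and 1.04 to 1.65 at 16 h. The genes that passed had medians of 1.46 and 1.30.

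For Bmal1-/- livers 0 of 9 members passed at 24 h (0.0116% of genes), 16 h (0.0116%) or 12 h (0.14%). At an unadjusted JTK_CYCLE p under 0.05 there were 0, 1 and 3 members at these periods: Irf7 at 16 h (p = 0.0326 by its exact null, q = 0.745), and Ifit1 (p = 0.0054, q = 0.233), Gbp7 (p = 0.0275, q = 0.336) and Irgm1 (p = 0.0308, q = 0.349) at 12 h. By edgeR's test of cosine and sine terms, too, 0 members had an adjusted p under 0.2 at any of these periods, and 0 to 2 had an unadjusted p under 0.05. Tested directly, the 24 h wave differed from WT for 0 of 9 members in Per1,2-/- livers (24.6% of genes; lowest adjusted p 0.069, Irgm1) and for 0 of 9 in Bmal1-/- livers (19.4% of genes; lowest adjusted p 0.17, Ifit3), by edgeR's interaction terms.

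**Figure D3:**
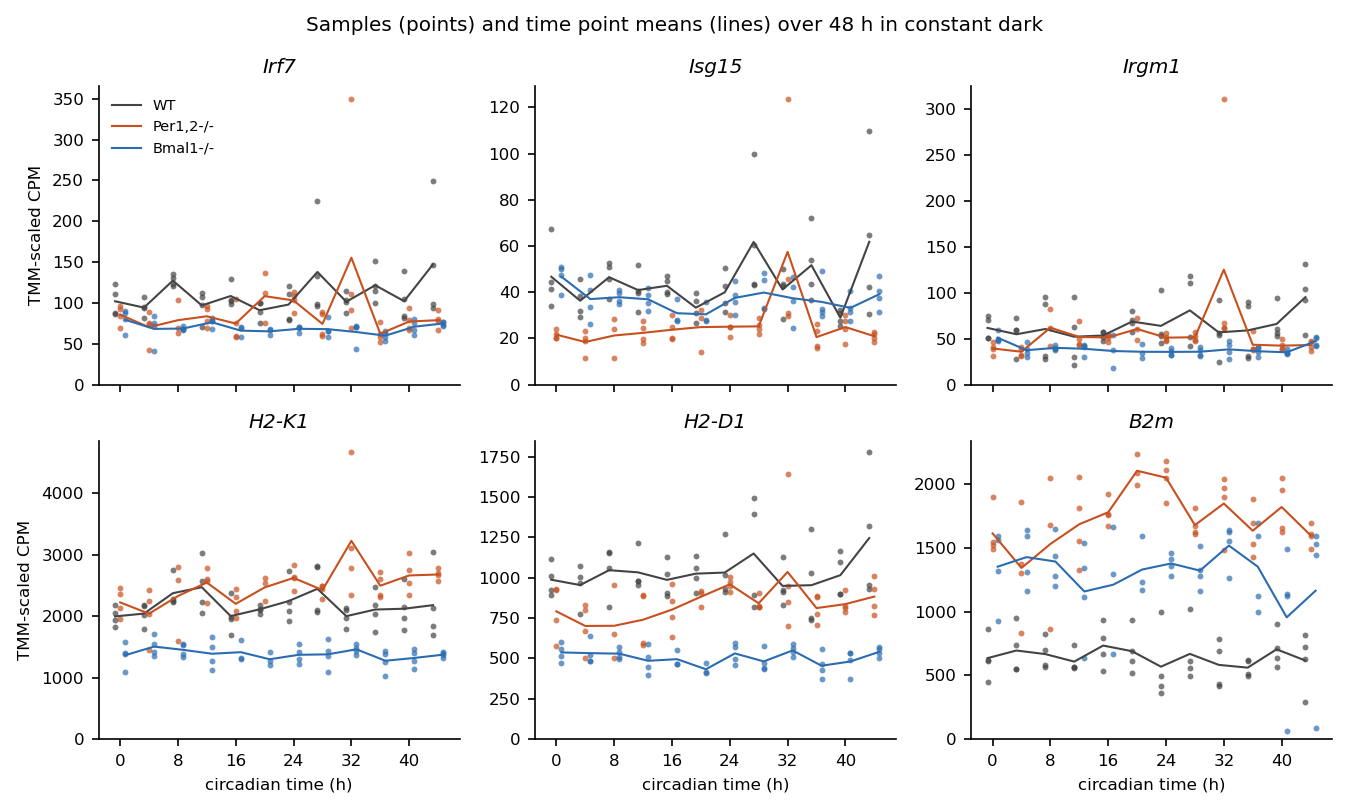
TMM-scaled CPM of 6 of the genes against circadian time in hours, with samples as points and time point means as lines; genotypes are shifted sideways for visibility. The Per1,2-/- lines of Irf7, Isg15 and Irgm1 peak at CT32, where sample A is far above the other 3 (350.1 CPM of Irf7 against 69.7 to 111), and the mean of B2m of Per1,2-/- livers lies above WT throughout.

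Without a fixed period, edgeR's test over the 12 time points called 2 of 9 members in WT livers (Ifit3, adjusted p = 0.027; Isg15, adjusted p = 0.014), where 29.9% of genes were called. It called 4 of 9 in Per1,2-/- livers (Irf7, 0.032; Ifit3, 0.031; Isg15, 0.0033; Irgm1, 0.00073), where 13.3% of genes were called, and in Bmal1-/- livers 0 of 9, where 0.26% were. Most of these calls depended on 1 or 2 samples. Without WT sample A at CT28 and WT sample A at CT44, both WT calls were lost (adjusted p 0.073 for Ifit3 and 0.057 for Isg15). Without Per1,2-/- sample A at CT32, Irf7 (0.13), Ifit3 (0.33) and Isg15 (0.23) were no longer called, Irgm1 still was (0.0046) and Ifit1 was (0.043). Without all samples lettered A, 0 members were called in Per1,2-/- livers (Irgm1, 0.088), 2 were without those lettered B and 2 without those lettered D, and 2 were with the letters as a replicate block. In WT livers 0 were called without the letter A, 1 without B and 0 without C.

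The Per1,2-/- sample A at CT32 was the highest of its genotype in 8 of the 9 genes. For Irf7 the 4 samples at CT32 were at 350.1, 69.7, 91.0 and 111 CPM, for Irgm1 at 310.3, 66.8, 61.6 and 61.3, and for Isg15 at 124, 30.9, 29.6 and 45.6. Ifit3 was at 56.1, 13.6, 9.23 and 21.2, and Gbp7 at 27.8, 5.39, 4.89 and 1.82. Sample A thus exceeded the next sample in each of these genes severalfold. H2-K1 (4674, 2782, 2339 and 3103 CPM) and H2-D1 (1643, 850, 703 and 949) were also highest in it, by a smaller factor. B2m was not set apart, at 2040, 1969, 1898 and 1481 CPM. The macrophage markers of these 4 samples summed to 2106, 542, 453 and 1004 CPM, the T and NK cell markers Nkg7 and Ccl5 (2 of 9 listed for all genotypes) to 144, 26.6, 6.79 and 52.5, and the hepatocyte markers to 56483, 89456, 83374 and 89021. Sample A was thus also the highest of its genotype in summed macrophage markers and the lowest in summed hepatocyte markers. It was the lowest in Alb as well (31015 CPM). The part of either marker sum in its interferon gene levels was not tested.

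To see how often members were high in the same liver, each sample was set against the mean of its genotype and time point on the log2(CPM + 1) scale. The mean deviation of Irf7, Ifit1, Ifit3 and Isg15 was 1.35 in Per1,2-/- sample A at CT32, where 9 of 9 members were above the group mean, and 0.74 in WT sample A at CT44, where 8 of 9 were. The next were 0.57 (Per1,2-/-, sample A at CT8) and 0.56 (Bmal1-/-, sample A at CT4). Only 1 of the 140 samples deviated by more than 1 upward and 0 by more than 1 downward, the lowest being at -0.52. The SD of this mean over samples was 0.26 in WT, 0.34 in Per1,2-/- and 0.18 in Bmal1-/- livers, and 0.25 in Per1,2-/- livers without sample A at CT32. Within time points, the coefficient of variation was 34.3%, 55.2% and 18.3% for Isg15 in WT, Per1,2-/- and Bmal1-/- livers and 41.4%, 69.2% and 17.6% for Irgm1. The Per1,2-/- values rested on sample A at CT32, without which they were 22.98% for Isg15 and 17.5% for Irgm1, the latter about as in Bmal1-/- livers. For B2m it was 28.4%, 15.1% and 29.1%, and 19.6% in Bmal1-/- livers without the 2 samples that stood apart in Alb.

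Deviations of Irf7 were correlated with those of the other 8 members within each genotype, 24 pairs in all, with permutation p-values adjusted over the pairs. In WT livers (n = 48) Isg15 had Pearson's r of 0.75 and Spearman's rho of 0.66 (adjusted permutation p = 3.0e-05), H2-D1 had 0.67 and 0.74, and H2-K1 had 0.62 and 0.71. Without the 2 samples farthest from the median of Irf7, WT samples A at CT44 and CT28, r was 0.63, 0.68 and 0.70. Throughout this paragraph, samples left out in this way stayed in the time point means. The deviations of the other samples of their group still depended on them. Such values do not show whether a relation holds without these samples. Gbp7 (r = 0.46), Irgm1 (0.42) and Ifit3 (0.37) also passed in WT, while Ifit1 (0.30, adjusted permutation p = 0.057) and B2m (-0.13, adjusted permutation p = 0.40) did not. In Per1,2-/- livers (n = 46) r was 0.78 with Isg15, 0.73 with Irgm1, 0.71 with Ifit3, 0.71 with H2-K1, 0.64 with H2-D1, 0.59 with Gbp7 and 0.51 with Ifit1, all of which passed, and 0.29 with B2m, which did not (adjusted permutation p = 0.077). Without samples A and B at CT32, r was 0.64 with Isg15, 0.46 with Irgm1, 0.58 with Ifit3 and 0.62 with H2-K1. Among Bmal1-/- livers (n = 46) the relation passed for Isg15 (r = 0.56, rho = 0.43, adjusted permutation p = 0.00019; r = 0.37 without 2 samples) and Ifit3 (r = 0.37, rho = 0.23), and the latter had r of 0.31 with an adjusted permutation p of 0.064 without the 2 farthest samples. The smallest unadjusted p that these permutations can give is 1e-05. They treated the deviations as independent, although those of 1 time point sum to 0. These p-values, and those for the macrophage markers below, can therefore be too small.

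The summed macrophage markers moved with the mean of the 4 interferon-induced genes in WT (r = 0.49, rho = 0.54, adjusted permutation p = 0.00066; r = 0.46 without the 2 farthest samples) and in Per1,2-/- livers (r = 0.57, rho = 0.35, adjusted permutation p = 0.00042; r = 0.44 without them). For Bmal1-/- livers r was 0.09 and rho -0.02 (permutation p = 0.56). The time point means again held all samples, so r without the 2 farthest samples still depended on those samples. In Per1,2-/- livers, samples B and C at CT32 were low on both measures against a mean that held sample A. Whether the genotypes differed in this relation was not tested.

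**Figure D4:**
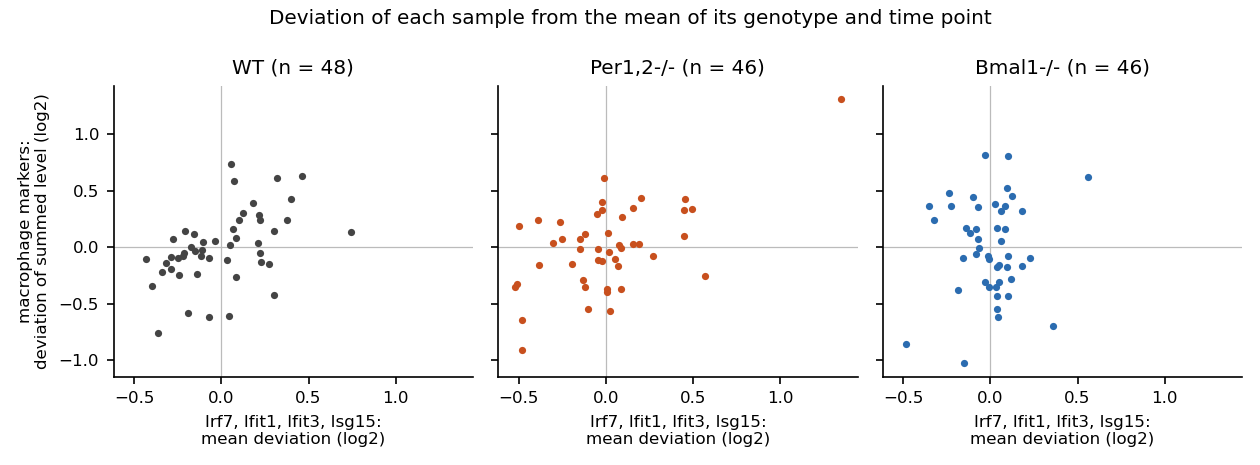
Deviation of each sample from the mean of its genotype and time point, with the mean of Irf7, Ifit1, Ifit3 and Isg15 on the horizontal axis and the sum of macrophage markers on the vertical axis, both log2. The Per1,2-/- sample A at CT32 (1.35 on the horizontal axis) is alone at the upper right, and the points slope upward in WT (r = 0.49) and Per1,2-/- (r = 0.57) but not in Bmal1-/- livers (r = 0.09).

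Among all other genes, those whose deviations were most like the mean of the 4 interferon-induced genes over the 140 samples were Cxcl10 (r = 0.71), which encodes a chemokine induced by interferon gamma, Apol9a (0.70), Igtp (0.68), which encodes another interferon-inducible GTPase, Apol9b (0.68) and Psmb10 (0.66), a subunit of the immunoproteasome. Apol9a and Apol9b are near copies of each other, and their values are not separate evidence. Without the 3 samples highest in Irf7 these were 0.62, 0.65, 0.60, 0.63 and 0.56. Of the members outside the 4, Gbp7 (0.62), Irgm1 (0.60), H2-D1 (0.59) and H2-K1 (0.51) ranked 14, 17, 19 and 50 of 9976 genes, and B2m (0.17) ranked 1110. These correlations describe samples that share libraries and depth. Cxcl10 ranged from 6.98 to 121 CPM (median 20.0) in WT, from 5.98 to 520.0 (19.9) in Per1,2-/- and up to 14.6 (7.40) in Bmal1-/- livers. It was lower in Bmal1-/- than in WT livers (-1.78 ± 0.19 on the log2 scale), and its highest Per1,2-/- value was far above every other sample.

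The rest of the pathway was described with lists of genes grouped by role, and each list's count is set beside the shares of all genes given above. Of the 9 listed ligands and inducing cytokines, 7 were in none of the tables, among them Ifnb1, and 1 was tested. That was Il18, a cytokine that stimulates interferon gamma production, which was higher in Per1,2-/- (0.48 ± 0.06) and in Bmal1-/- livers (0.71 ± 0.06) than in WT. Of the 20 receptor and signalling genes, 6 were higher and 10 lower in Per1,2-/- livers (median log2 difference -0.09), and 2 were higher and 15 lower in Bmal1-/- livers (median -0.40). Irf2, which encodes a repressor of interferon responses, was 1.97-fold lower in Per1,2-/- (-0.98 ± 0.05, adjusted p = 5.4e-34, edgeR) and 3.22-fold lower in Bmal1-/- livers (-1.69 ± 0.05, adjusted p = 9.1e-55). Ifngr2, a chain of the interferon gamma receptor, was lower in both (-0.79 ± 0.06 and -0.99 ± 0.06), whereas Ifngr1, its other chain, was higher in Per1,2-/- than in WT livers (0.51 ± 0.06). Jak1, a kinase shared by the interferon receptors, was higher in both mutants (0.74 ± 0.05 and 0.44 ± 0.05). Il10rb, a chain of the interferon lambda receptor, was higher in Per1,2-/- (0.38 ± 0.06) and lower in Bmal1-/- livers (-1.17 ± 0.07). Usp18, which removes ISG15 from proteins and restrains type I signalling, was lower in both mutants (-1.06 ± 0.10, adjusted p = 9.6e-18, and -0.81 ± 0.10, adjusted p = 7.1e-13, edgeR).

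Of 15 genes that sense RNA or DNA or relay that signal, 10 were tested, with 3 higher and 3 lower in Per1,2-/- (median -0.02) and 3 higher and 6 lower in Bmal1-/- livers (median -0.20). Dhx58, an RNA sensor, was lower in both (-0.72 ± 0.08 and -0.55 ± 0.08), Ifih1, another, was higher in both at low counts (0.58 ± 0.12 and 0.45 ± 0.13), and Zbp1, a nucleic acid sensor, was 3.71-fold lower in Bmal1-/- livers (-1.89 ± 0.13). Of 47 other interferon-stimulated genes 39 were tested, with 9 higher and 18 lower in Per1,2-/- (median -0.20) and 8 higher and 25 lower in Bmal1-/- livers (median -0.28). Ly6e, Ifitm2 and Ifitm3, which encode membrane proteins that limit virus entry or are induced by interferon, were lower in Per1,2-/- livers (-1.01 ± 0.08, -0.76 ± 0.06 and -0.80 ± 0.07), and Trim25 (0.37 ± 0.04), a ubiquitin ligase of RNA sensing, Znfx1 (0.39 ± 0.05) and Dtx3l (0.60 ± 0.10) were higher. Sp100, which encodes a nuclear body protein, was higher in both mutants (1.05 ± 0.20 and 2.87 ± 0.16), from a median of 0.491 CPM in WT to 1.09 in Per1,2-/- and 4.11 in Bmal1-/- livers. In Bmal1-/- livers Ifi27l2a (-1.75 ± 0.11), Rtp4 (-1.12 ± 0.08) and Trim21 (-1.81 ± 0.12), all induced by interferon, were lower, while Rsad2, which encodes the antiviral enzyme viperin, was higher (1.73 ± 0.15), from a median of 1.77 CPM in WT to 5.78. Lgals9, which encodes galectin-9, was lower in Per1,2-/- (-0.69 ± 0.03) and higher in Bmal1-/- livers (0.43 ± 0.03).

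The interferon-inducible GTPases beside Irgm1 and Gbp7 set the mutants apart. Of 16 listed, 9 were tested, and 9 of 9 were lower in Bmal1-/- than in WT livers (median -1.26) and 9 of 9 higher in Per1,2-/- than in Bmal1-/- livers (median 1.46), against 2 higher and 2 lower between Per1,2-/- and WT (median 0.13). Gbp8 (-2.25 ± 0.20), Gbp2 (-2.12 ± 0.23), Gbp3 (-2.10 ± 0.17) and Igtp (-1.64 ± 0.15) had the smallest p against WT in Bmal1-/- livers. Gbp2b was higher (1.00 ± 0.19) and Gbp3 lower (-0.46 ± 0.14) in Per1,2-/- than in WT livers. The median macrophage marker also differed between Bmal1-/- and WT livers by -1.80, with 10 of 10 lower, and the class II genes, which mark antigen-presenting cells, by -1.86, with 7 of 7 lower (H2-Ab1, -2.46 ± 0.16; H2-Aa, -2.17 ± 0.16; the invariant chain Cd74, -1.77 ± 0.15). The part of these cells in the GTPase values was not tested. In Per1,2-/- livers 2 macrophage markers were higher and 2 lower than in WT (median 0.09). Vsig4, a Kupffer cell receptor (1.27 ± 0.12), and Clec4f (0.30 ± 0.07) were higher, and C1qc (-0.46 ± 0.09) and Adgre1 (-0.33 ± 0.11) were lower.

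Of the 14 genes that cut, transport and load peptides for class I, 5 were higher and 5 lower in Per1,2-/- (median 0.00) and 2 higher and 10 lower in Bmal1-/- livers (median -0.46). Nlrc5, the transactivator of class I genes, was higher in Per1,2-/- (0.52 ± 0.08, adjusted p = 6.1e-09, edgeR) and lower in Bmal1-/- livers (-0.99 ± 0.09, adjusted p = 2.8e-19). H2-K1 had these directions in both mutants. H2-D1 differed from them in Per1,2-/- livers (-0.31) and B2m in Bmal1-/- livers (1.01), and a part of Nlrc5 was not tested. The immunoproteasome subunit gene Psmb9 was lower in both (-0.93 ± 0.10 and -1.14 ± 0.10), and Psmb8 (-0.95 ± 0.08) and Psmb10 (-0.90 ± 0.07) were lower in Bmal1-/- livers. Tap1, a chain of the peptide transporter, was lower in Per1,2-/- livers (-0.39 ± 0.09), where Tapbp, which encodes tapasin, was higher (0.34 ± 0.06). Erap1, which trims peptides in the endoplasmic reticulum, was higher in both mutants, 1.15-fold in Per1,2-/- and 2.83-fold in Bmal1-/- livers.

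Of 17 other class I and class I-like genes 9 were tested, with 1 higher and 6 lower in Per1,2-/- (median -0.10) and 0 higher and 6 lower in Bmal1-/- livers (median -0.41). Hfe, a class I-like protein of iron sensing that pairs with beta-2-microglobulin, was 8.86-fold lower in Bmal1-/- than in WT livers (-3.15 ± 0.05, adjusted p = 1.0e-83, edgeR), from a median of 47.3 CPM to 5.26. Fcgrt, the heavy chain of the neonatal Fc receptor and another partner of beta-2-microglobulin, was lower in both mutants (-0.19 ± 0.04 and -0.58 ± 0.04). H2-M3, a heavy chain that presents bacterial formyl peptides, was lower in Bmal1-/- livers (-1.41 ± 0.11). H2-Ke6 was also lower in both (-0.46 ± 0.03 and -0.41 ± 0.03), but it encodes a dehydrogenase and is in the list by its place in the MHC. No gene of this list was called higher in Bmal1-/- livers, where the shared light chain B2m was higher.

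**Figure D5:**
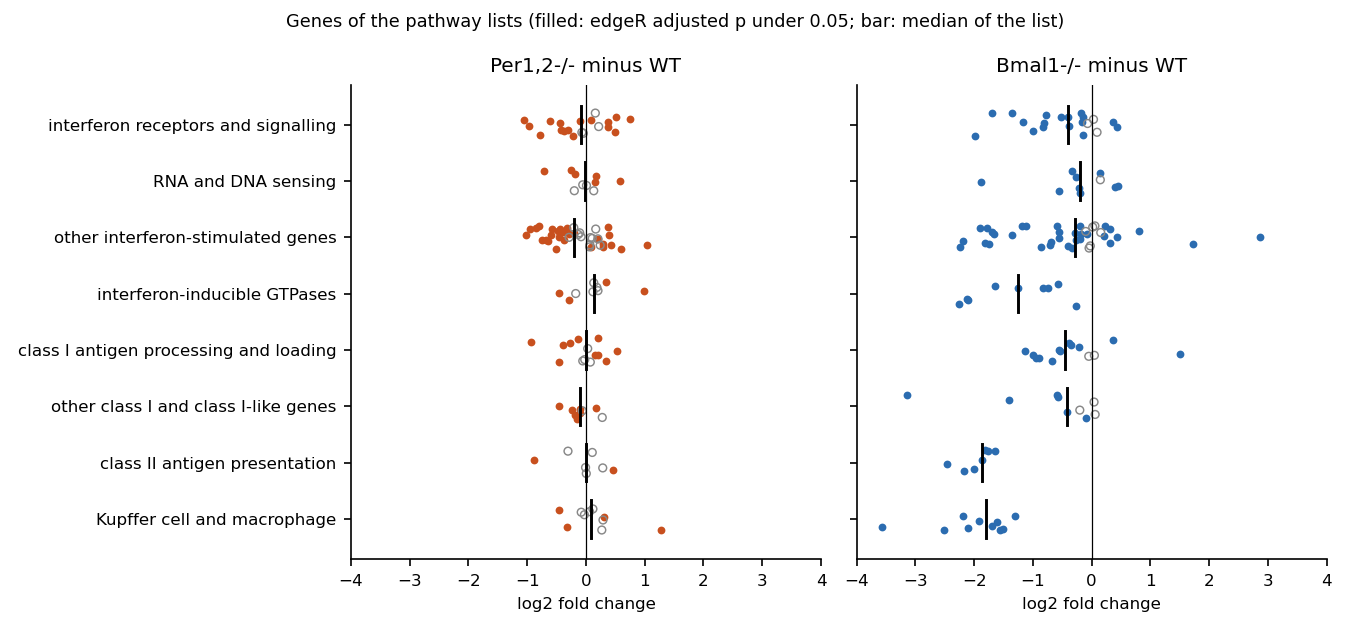
Log2 fold change of each tested gene against WT (horizontal axis) by list, for Per1,2-/- on the left and Bmal1-/- on the right; filled points passed edgeR's test and bars are list medians. In Bmal1-/- livers the GTPases (median -1.26), class II genes (-1.86) and macrophage markers (-1.80) lie below 0, while in Per1,2-/- livers the medians of the 8 lists plotted run from -0.20 to 0.13.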

How the data were processed

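Bulk liver RNA was sequenced by MARS-seq, a 3′ tag method with molecular identifiers. Per the labels and the methods of the study, the authors used cutadapt for trimming, STAR with the mm10 genome for alignment and HTSeq with RefSeq genes for the molecule counts, within the UTAP pipeline; counting over extended 3′ regions can mix similar or neighbouring genes. The deposited tables hold raw counts for 3 genotypes and, for WT and Per1,2-/-, counts that the authors normalized with DESeq2 (a signal scaled by size factors), used here only for rhythms; Bmal1-/- counts were scaled here by the same median-of-ratios method. The 9 genes and the lists were chosen with earlier results of these data known.

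Levels were compared with edgeR 4.0.16 (quasi-likelihood F-test, TMM, 9985 genes with a mean of at least 1 CPM over 140 samples, Benjamini-Hochberg, called under 0.05) with 1 mean per genotype and time point. JTK_CYCLE was written anew (q under 0.2, genes with at least 1 count in every sample of WT and the mutant, 9258 or 8586 genes), and folds came from harmonic regression. Further tools were limma 3.58.1 in R 4.3.3 and, in Python 3.11.15, pandas 2.3.3, SciPy 1.17.1, Matplotlib 3.10.9 and NumPy 2.4.6, with 100000 resamples in permutation tests and a pseudocount of 1. The scripts were tested on simulated data. Pathway genes were named as up to 4 called genes with the smallest p per list, comparison and direction, and those most alike as the 5 with the highest r. That each sample was a separate mouse is not stated, so p-values measure the spread between samples. Alternatives were DESeq2 1.42.0, other scaling, no filter, a replicate block, leaving out each letter, and, chosen after seeing the data, leaving out samples that stood apart.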

Additional observations from a re-analysis of the deposited data

Results flagged for a closer look

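Among 288 sets of 4 samples (9 genes in each genotype and time point with 4 samples), 21 held a sample far from the other 3 by Dixon's test, 17 high and 4 low, in 16 samples. Chance alone gives about 1 in 20 sets.

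Per1,2-/- sample A at CT32 was set apart in 4 genes, at 350.1 CPM for Irf7 (others 69.7 to 111), 124 for Isg15 (29.6 to 45.6), 310.3 for Irgm1 (61.3 to 66.8) and 27.8 for Gbp7 (1.82 to 5.39). WT sample A at CT12 was high in 3 genes, at 5.98 CPM for Gbp7 (others 2.02 to 2.40), 1217 for H2-D1 (957 to 982) and 739.8 for B2m (556 to 568). Bmal1-/- sample D at CT44, which was also low in Alb, had 84.2 CPM of B2m (others 1444 to 1593).

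The other low samples were 43.4 CPM for Irf7 in Bmal1-/- sample A at CT32 (others 70.7 to 72.1), 1.16 for Ifit1 in Per1,2-/- sample C at CT12 (3.13 to 3.35) and 29.8 for Irgm1 in Bmal1-/- sample D at CT12 (41.3 to 42.8). High samples in WT were 129.7 CPM for Irf7 (CT16 D, others 98.6 to 104), 103 for Irgm1 (CT24 A, 45.5 to 54.6), 6.53 for Gbp7 (CT0 D, 3.12 to 3.31), 9.26 for Gbp7 (CT40 D, 2.98 to 3.51) and 2743 for H2-K1 (CT8 B, 2224 to 2282). High samples in Per1,2-/- livers were 13.5 CPM for Ifit3 (CT4 B, others 7.06 to 7.42), 58.7 for Irgm1 (CT36 D, 37.5 to 38.7), 907 for H2-D1 (CT28 D, 816 to 826) and 1895 for B2m (CT0 C, 1491 to 1545). In Bmal1-/- livers Isg15 was high at 49.3 CPM in sample D at CT36 (others 29.5 to 32.9).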

How the results depend on the processing

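No direction of a called member turned under any alternative, and the counts of members called for levels, rhythms and differences of rhythm were within 1.5 times of those reported. For single members, 1350 values under alternatives kept their side of the threshold, 23 no longer passed it and 7 newly did. The counts of members called between any time points moved. In WT livers (2 called) they were 0 to 2 on leaving out each letter and 0 without the 3 samples highest in Irf7. In Per1,2-/- livers (4 called) they were 0 to 4 on leaving out each letter, 2 without the 3 samples and 2 with a replicate block. The letters were not stated to mark shared animals or days, and samples of 1 letter in a genotype deviated together only weakly (mean r 0.0204 in WT, 0.00568 in Per1,2-/- and 0.0147 in Bmal1-/-), so the replicate block was an alternative only; with it 8, 9 and 8 members were called for levels, 3 for time in WT and 0 for rhythms. Over all genes, the count called between time points was 26 in Bmal1-/- (8 to 98 over alternatives), 1325 in Per1,2-/- (376 to 1845) and 2987 in WT (1715 to 3153), and the difference of 24 h waves in Bmal1-/- was 1935 (1176 to 2008). Rhythm counts were 8 (0 to 166) at 24 h and 438 (29 to 496) at 16 h in Per1,2-/-, and 1 (0 to 3), 1 (0 to 16) and 12 (0 to 33) at 24, 16 and 12 h in Bmal1-/- livers. Gbp7 and Ifit1 had few counts per sample, and counting error adds to the spread of their values. The causes of these shifts were not tested.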
